A study of Ipomoea batatas with 12 samples.

Results

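ICL2 and MLS encode the enzymes that are particular to the glyoxylate cycle, and they were followed here by their gene IDs in sweetpotato: G23318 and G23306, both named ICL2 (isocitrate lyase), and G42670, named MLS (malate synthase). These are 3 of the 50592 genes listed in the expression tables, and all 3 passed the filter on low values that left 12295 genes for testing. The plants were of the cultivar Xuzishu 8, dug from the field and kept in Hoagland solution, and each of the 12 libraries held RNA pooled from leaves and tuberous roots over several sampling times. The groups were heat (HT), drought imposed by PEG in the solution (DR), PEG drought together with heat (DH), and unstressed plants (CK), with 3 libraries each. The unstressed plants were kept in a different growth chamber, so chamber and stress cannot be told apart. The study's methods name triplicate biological samples and also libraries made in triplicate, without saying how the samples map to the pools, so part of the spread behind the p-values may be technical.

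In plants, the glyoxylate cycle takes the acetyl-CoA released from fatty acids in peroxisomes and turns it into organic acids without losing carbon as carbon dioxide. Isocitrate lyase splits isocitrate into succinate and glyoxylate, and malate synthase joins glyoxylate with another acetyl-CoA to give malate, which can leave for the synthesis of sugars. The pathway is best known from oil-storing seedlings and from senescing or carbon-starved leaves, and its genes are usually weakly expressed in well-fed green tissue.

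The files carry IDs only, so the names ICL2 and MLS come from the study's own gene tables, which were chosen on these samples, and no transcript or protein sequence was used to check them. The sequences that identify the genes are those of the primer pairs designed for quantitative PCR of G23318 and MLS. They are printed 5′ to 3′, and the capitals mark the 5 bases at the 3′ end, from which the polymerase extends.
ICL2 (G23318) forward: cgtacgatacggtgcctAATAA
ICL2 (G23318) reverse: cctacctgctcatgttcATTCT
MLS (G42670) forward: ggagttcagaggccatgTTAAG
MLS (G42670) reverse: gtatttggtggcgggAATCA
The ICL2 primers were both 22 bases long with 45.5% G or C, while those of MLS were 22 and 20 bases long with 50.0% G or C. Whether the ICL2 pair tells G23318 from G23306 was not tested. Sweetpotato is polyploid, and reads of near-identical copies can be divided between IDs, so the levels of the ICL2 copies are uncertain to that extent.

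The libraries differed in make-up as well as in treatment. Between 13653 genes (DH2) and 33410 genes (CK3) had an FPKM (fragments per kilobase of transcript, scaled to the mapped fragments of the library) above 0, and the 10 most abundant genes held between 34.7% (HT1) and 89.7% (DH2) of the summed FPKM. The summed FPKM of the 6 leaf marker genes listed in every library lay between 129 and 442 in HT, between 1147 and 3073 in DR, between 36.2 and 561 in DH and between 1143 and 7095 in CK. That of the 5 starch genes lay between 1.93 and 20.3 in HT, 6.59 and 45.3 in DR, 0.56 and 28.7 in DH, and 33.8 and 1756 in CK, and no marker was at 0 in all libraries of a group. Both sums of every HT and DH library lay below those of every CK library, whereas the DR libraries overlapped CK in both. Among the CK libraries, CK1 had the highest leaf sum and the lowest starch sum. CK3 had the lowest leaf sum and the highest starch sum. In pooled tissue, fewer cells of a type and less RNA per cell cannot be told apart, and the part of tissue make-up in the results below was not tested.

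MLS was abundant in the stressed plants, from above 96.8% of the genes with an FPKM over 0 in HT2 to above 99.8% in DH1. Its FPKM was 2576, 138 and 451 in HT1 to HT3, 931, 1524 and 1408 in DR1 to DR3, and 1752, 116 and 1265 in DH1 to DH3, against 6.10, 9.56 and 21.5 in CK1 to CK3. Every stressed library lay above every CK library, with HT2 and DH2 the lowest of the stressed ones. The mean FPKM was 1055 ± 1327 in HT, 1288 ± 314 in DR and 1044 ± 840 in DH, against 12.4 ± 8.09 in CK (SD, n = 3 each). The ratio of means was thus 85.1 for HT, 104 for DR and 84.3 for DH. The lowest stressed library exceeded the highest CK library 6.42 times in HT, 43.3 times in DR and 5.39 times in DH.

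**Figure D1:**
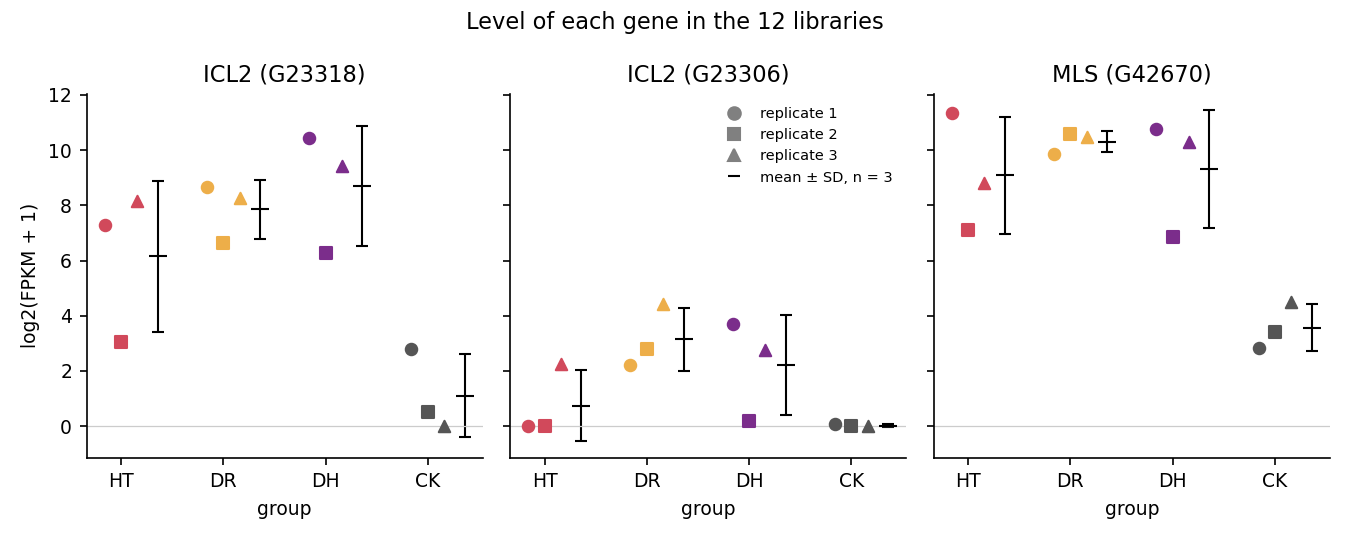
Level of ICL2 (G23318), ICL2 (G23306) and MLS (G42670) on the log2(FPKM + 1) scale in HT, DR, DH and CK. Each point is a library, its shape gives the replicate number, and the black marks are the mean and SD of 3 libraries. All 9 stressed libraries lie above the 3 CK libraries for G23318 and MLS, while G23306 stays low and is listed at 0 in HT1 and HT2.

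The rank of MLS within each library, which does not depend on how libraries are scaled, showed the same separation. By FPKM it stood at place 53, 465 and 164 from the top in HT1 to HT3, at 116, 43 and 85 in DR1 to DR3, and at 55, 267 and 46 in DH1 to DH3, against 4223, 2275 and 2082 in CK1 to CK3. No stressed library ranked MLS as low as any CK library did.

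ICL2 G23318 had the same separation at a lower level. Its FPKM was 155, 7.21 and 281 in HT1 to HT3, 403, 97.9 and 307 in DR1 to DR3, and 1395, 76.6 and 686 in DH1 to DH3, against 6, 0.43 and a listed 0 in CK1 to CK3. HT2 lay just above CK1, the highest CK library, by a factor of 1.20, whereas the lowest DR and DH libraries exceeded CK1 16.3 and 12.8 times. The means were 148 ± 137 in HT, 269 ± 156 in DR and 719 ± 660 in DH, against 2.14 ± 3.35 in CK (SD, n = 3 each). The ratio of means was 68.9 for HT, 126 for DR and 336 for DH. Within libraries it ranked 802, 3324 and 285 in HT1 to HT3, 271, 473 and 298 in DR1 to DR3, and 75, 382 and 87 in DH1 to DH3, against 4271 in CK1 and 9344 in CK2, with CK3 listed at 0. HT2 again was the stressed library nearest to the CK libraries.

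The other ICL2 copy, G23306, was weak everywhere. Its FPKM was listed at 0 in HT1 and HT2 and was 3.71 in HT3. It was 3.64, 5.87 and 20.7 in DR1 to DR3, and 12.1, 0.13 and 5.80 in DH1 to DH3, against 0.05 in CK1 and a listed 0 in CK2 and CK3. The DR and DH libraries all lay above the CK libraries, but in HT only HT3 did. Of the FPKM of both ICL2 copies together, G23306 held 1.3% in HT3, 0.895%, 5.66% and 6.30% in DR1 to DR3, and 0.857%, 0.169% and 0.838% in DH1 to DH3, against 0.826% in CK1. G23318 therefore carried nearly all of the isocitrate lyase signal of these IDs wherever it was expressed.

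Separation from CK was also counted over all genes tested. In HT, 2 of the 3 genes had each HT library above each CK library, against 11.5% of all tested genes. In DR and in DH, 3 of 3 did so, against 8.56% and 5.77%. With all 9 stressed libraries set against the CK libraries, 2 of 3 did so (G23318 and MLS), against 2.05% of tested genes. Neither ICL2 copy would have passed the filter on low values by its CK libraries alone. The separation of G23306 in DH rests on 0.13 in DH2 beside 0.05 in CK1. The genes were also named from study tables chosen on these samples, so these shares are a description and no test.

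The first comparison asked what heat alone did. Both G23318 and MLS rose in HT, and G23306 did not pass the test. Each test was made with limma, a linear model that pools the spread over genes, and genes counted as raised or lowered where their p, adjusted over all genes tested, was below 0.05 with a log2 change beyond 1. The log2 fold change, here always on the log2(FPKM + 1) scale that understates changes of weak genes, was 5.05 for G23318 (SE 1.25, 95% interval 2.46 to 7.63, limma adjusted p = 0.0486). It was 5.52 for MLS (SE 1.14, interval 3.17 to 7.87, adjusted p = 0.0200) and 0.72 for G23306 (SE 0.95, adjusted p = 0.743). Raised genes made up 0.569% of the genes tested, and the median log2 fold change of all of them was 0.30. The call of G23318 was lost without any 1 of CK2, CK3, HT1, HT3, DR1, DR2, DR3 or DH3, and that of MLS without any 1 of CK2, HT1 or HT3. Across the 12 fits with 1 library left out, the log2 fold change lay between 4.06 and 6.61 for G23318 and between 4.40 and 6.50 for MLS, with the highest values reached without HT2.

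The second comparison asked the same of PEG drought. G23318 and MLS rose in DR, with log2 fold changes of 6.74 (SE 1.25, interval 4.16 to 9.33, limma adjusted p = 0.00653) and 6.73 (SE 1.14, interval 4.38 to 9.08, adjusted p = 0.00312). G23306 had a log2 fold change of 3.12 (SE 0.95, interval 1.16 to 5.08, adjusted p = 0.168) and did not pass, although its groups did not overlap. Raised genes made up 0.586% of the genes tested in this comparison, with a median of 0.07 over all tested genes. The call of MLS held in all 12 fits with 1 library left out (6.35 to 7.19), whereas that of G23318 was lost without CK3, DR1 or DR3 (6.19 to 7.59 over the 12 fits). The replicate numbers of DR and CK went together, and with the number as a block 121 genes were raised in DR, against 72 without it, and 43 lowered, against 24. G23318 (adjusted p = 0.00146) and MLS (adjusted p = 0.00348) kept their calls in that fit. The fold change of weak values depended on the added FPKM: with 0.1 in place of 1, it was 8.39 for G23318, 6.85 for MLS and 6.08 for G23306, which again did not pass (adjusted p = 0.0857).

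The third comparison set combined drought and heat against CK. G23318 had a log2 fold change of 7.61 (SE 1.25, interval 5.02 to 10.2, limma adjusted p = 0.00247), the second highest of all genes tested. MLS rose by 5.74 (SE 1.14, interval 3.39 to 8.09, adjusted p = 0.00839), and G23306 had 2.19 (SE 0.95, interval 0.23 to 4.15, adjusted p = 0.345) and did not pass. Raised genes made up 0.577% of the genes tested, with a median of -0.37 over all tested genes. The call of G23318 held in all 12 fits with 1 library left out (6.74 to 8.83), and that of MLS was lost without DH1 or DH3 (5.01 to 6.97 over the 12 fits). With 0.1 FPKM added in place of 1, G23306 had 4.48 and did not pass (adjusted p = 0.184).

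With the 3 stresses averaged against CK, the log2 fold changes were 6.47 for G23318 (SE 1.02, limma adjusted p = 0.000695), 5.995 for MLS (SE 0.93, adjusted p = 0.000575) and 2.01 for G23306 (SE 0.78, adjusted p = 0.227). G23318 and MLS were called raised, as were 1.07% of the genes tested. These calls held in every fit with 1 library left out. All these comparisons share the CK libraries.

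**Figure D2:**
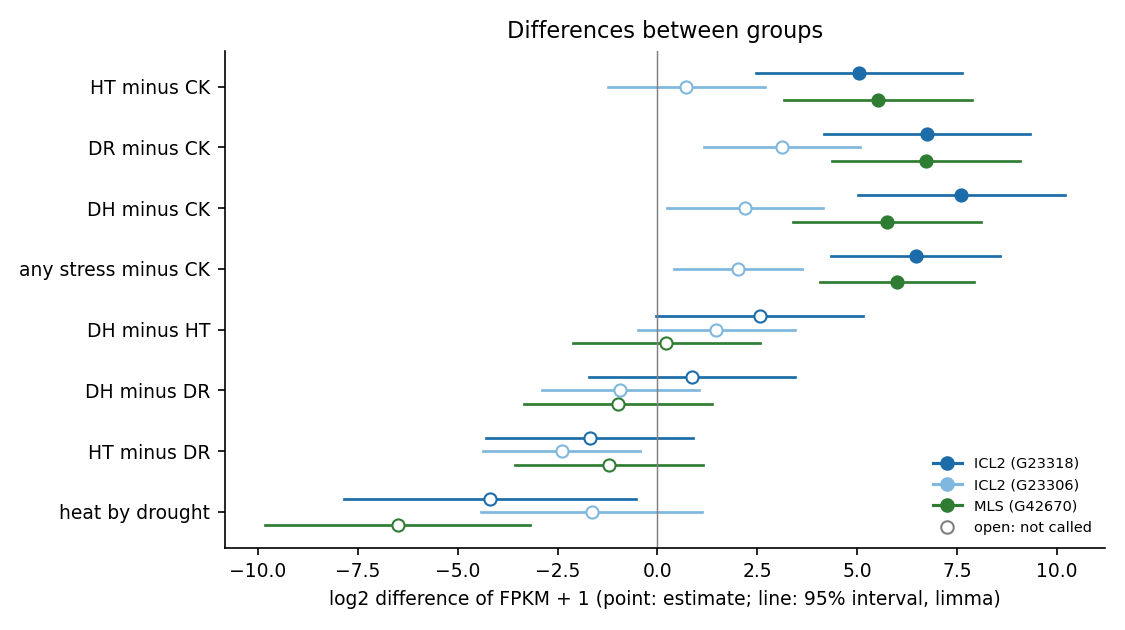
Differences between groups in log2(FPKM + 1) for ICL2 (G23318), ICL2 (G23306) and MLS (G42670), with 95% intervals from limma. Heat by drought is DH minus HT minus DR plus CK. Filled points passed the test (adjusted p below 0.05, with a log2 change beyond 1), and they are those of G23318 and MLS against CK.

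No difference between the stresses passed the test. By mean log2(FPKM + 1), the order was DH, DR, HT and CK for G23318, and DR, DH, HT and CK for MLS and G23306. DH minus HT was 2.56 for G23318 (interval -0.02 to 5.15, limma adjusted p = 0.761), 1.47 for G23306 (interval -0.49 to 3.43, adjusted p = 0.761) and 0.23 for MLS (interval -2.12 to 2.58, adjusted p = 0.958). DH minus DR was 0.87 for G23318 (interval -1.72 to 3.45), -0.93 for G23306 (interval -2.89 to 1.03) and -0.98 for MLS (interval -3.33 to 1.37). HT minus DR was -1.70 for G23318 (interval -4.28 to 0.89), -2.40 for G23306 (interval -4.36 to -0.44, which leaves out 0, unadjusted p = 0.0186, adjusted p = 0.641) and -1.21 for MLS (interval -3.56 to 1.14). Between neighbours in the order of the stresses, every interval held 0. Single libraries moved these values: without HT2, DH minus HT of G23318 was 1.004 and HT minus DR was -0.14, and without DH2 DH minus HT of G23318 was 3.78. Upper-quartile scaling brought DH minus HT of MLS to 1.36. Of all genes tested, 0% were raised and 0% lowered in DH over HT, where 597 had an unadjusted p under 0.05. In DH over DR 0% were raised and 0.0407% lowered, and in HT over DR 0.0163% were raised and 0.0488% lowered.

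The spread itself differed between stresses. For MLS, the highest library exceeded the lowest 18.7 times in HT, 1.64 times in DR and 15.1 times in DH, against 3.53 times in CK. On the log2 scale the SD of MLS was 2.12 in HT, 0.38 in DR and 2.13 in DH, against 0.85 in CK, and that of G23318 was 2.73 in HT, 1.08 in DR and 2.17 in DH, against 1.49 in CK. The lowest HT and DH values of both genes came from HT2 and DH2. Those are the libraries with the fewest genes above 0, 14425 in HT2 and 13653 in DH2, and their 10 most abundant genes held 71.8% and 89.7% of the summed FPKM. The part of this make-up in the low values was not tested. With each library scaled to the FPKM outside the 10 most abundant genes, MLS was still raised in HT (5.41, adjusted p = 0.0108) and DH (6.46, adjusted p = 0.00123). G23318 was also still raised in HT (4.93, adjusted p = 0.0206) and DH (8.32, adjusted p = 0.000285).

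The combined stress was also compared with the sum of heat and drought on the log2 scale. CK enters this value and was kept in a different chamber. A chamber effect therefore cannot be told apart from a departure from that sum. For MLS, DH minus HT minus DR plus CK was -6.50 (SE 1.61, interval -9.82 to -3.18), a negative value standing for less in DH than that sum. It ranked 15 of 12295 by unadjusted p (0.000467) but did not pass the adjustment (limma adjusted p = 0.345). It was -4.18 for G23318 (SE 1.77, interval -7.84 to -0.52, adjusted p = 0.878) and -1.65 for G23306 (SE 1.35, adjusted p = 0.901). Over all genes tested the median was -0.73, 0% were called in either direction, and 647 had an unadjusted p under 0.05. Without HT2 the value of MLS was -7.49 and passed (adjusted p = 0.0276).

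Within a library, the FPKM of the 2 genes can be compared without regard to scaling between libraries. The log2 ratios below also depend on the 1 FPKM added, since G23318 is low in CK. G23318 had 6.02%, 5.22% and 62.3% of the FPKM of MLS in HT1 to HT3, 43.3%, 6.43% and 21.8% in DR1 to DR3, and 79.6%, 66.1% and 54.3% in DH1 to DH3, against 98.4%, 4.50% and 0% in CK1 to CK3. The 3 DH libraries lay close together, whereas HT, DR and CK each spread widely, and the groups overlapped. The mean log2 ratio of FPKM + 1 was -2.94 ± 1.95 in HT, -2.45 ± 1.39 in DR and -0.60 ± 0.28 in DH, against -2.47 ± 2.27 in CK (SD, n = 3 each). In two-sided exact permutation tests against CK, p was 0.7 for HT, 1 for DR and 0.4 for DH, where 3 against 3 libraries cannot go below 0.1. For the 9 stressed libraries the difference was 0.47 with an exact permutation p of 0.709. With 0.1 FPKM added in place of 1, the differences were 0.997 in HT, 1.535 in DR, 3.39 in DH and 1.97 over all stresses. With 1 FPKM they were -0.47, 0.018, 1.87 and 0.47, and none passed with either amount. No change in the balance of G23318 and MLS transcripts was detectable with these numbers of libraries.

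**Figure D3:**
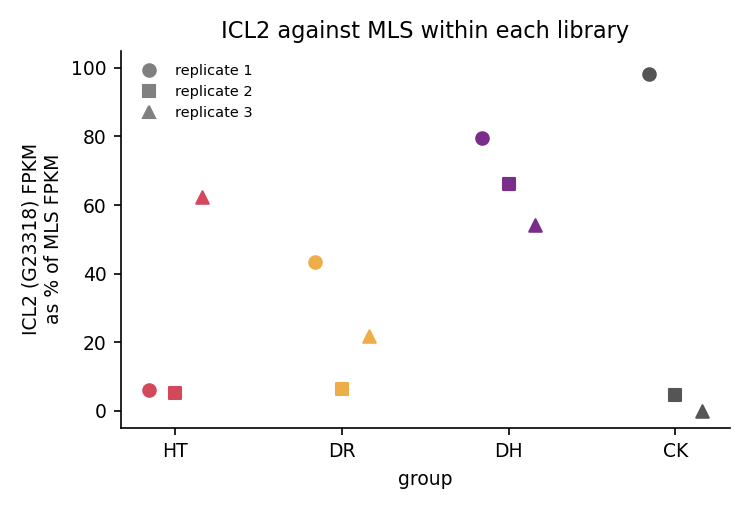
FPKM of ICL2 (G23318) as a percent of that of MLS within each library, for HT, DR, DH and CK, with 1 point per library. The DH libraries lie between 54.3% and 79.6%, while HT runs from 5.22% to 62.3%, DR from 6.43% to 43.3% and CK from 0% to 98.4%.

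The ratios of the weak copy to the other genes did not pass after adjustment. With 1 FPKM added, every stressed library lay below every CK library in both ratios. The permutation p could therefore not be lower with these numbers of libraries. The log2 ratio of G23306 to MLS differed from that in CK by -4.80 in HT, -3.61 in DR and -3.55 in DH (exact permutation p = 0.1 each), and by -3.98 over all 9 stressed libraries (exact permutation p = 0.00909, adjusted p = 0.0545 over the 12 ratio tests). The log2 ratio of G23306 to G23318 differed by -4.45 over the 9 stressed libraries, with the same p-values. Since G23306 lay near 0 in CK, these ratios are set largely by the added 1 FPKM.

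Across the libraries, G23318 and MLS followed each other in part. Pearson's r of log2(FPKM + 1) was 0.876 over all 12 libraries, which share the step between CK and stress, and 0.667 over the 9 stressed libraries. Among the 11207 other genes tested and listed in all libraries, MLS stood in place 54 by its r with G23318 over the 12 libraries and in place 405 over the stressed ones. By r with MLS, G23318 stood in place 31 over the 12 libraries and in place 1375 over the stressed ones. G23306 had r = 0.762 with G23318 and 0.692 with MLS over 12 libraries, and 0.698 and 0.556 over the stressed ones. These values describe libraries that also differ in make-up and carry no test.

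Among the genes with a symbol in the study's tables, of which 163 could be compared, ACX2 had the pattern closest to G23318 (r = 0.932 over 12 libraries, place 7 among 11207 genes). ACX2 encodes an acyl-CoA oxidase, which takes the first step of fatty acid beta-oxidation in the peroxisome. GOLS2, for galactinol synthase of the raffinose pathway, followed with r = 0.923, then gluA (0.917), the chitinase gene CHIT1B G27895 (0.910) and At5g58770 (0.906). Closest to MLS were CGLD27 (0.921) and HPD (0.919), which encodes 4-hydroxyphenylpyruvate dioxygenase of tyrosine breakdown and tocopherol synthesis, and then CHIT1B G27895 (0.892), CHIT1B G47455 (0.883) and TSJT1 (0.876). Closest to G23306 were the lipoxygenase gene LOX2.1 (0.969), NEC3 (0.926), AS (0.922), CHIT1B G47455 (0.914) and CHIT1B G27895 (0.907). All these r values include the step between CK and stress and were not taken over the stressed libraries alone. The candidates come from study tables chosen on these samples.

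ACX2 was the one gene of beta-oxidation in the list of peroxisomal and glyoxylate-related genes. Its FPKM was 108, 10.1 and 52.7 in HT1 to HT3, 32.9, 26.1 and 72.1 in DR1 to DR3, and 450, 24.4 and 149 in DH1 to DH3, against 2.92, 4.96 and 0.88 in CK1 to CK3. As for G23318 and MLS, every stressed library lay above every CK library, with HT2 and DH2 the lowest in their groups. Of all tested genes, 2.05% had this separation. ACX2 rose in DH with a log2 fold change of 5.08 (SE 1.08, limma adjusted p = 0.0147), a call that was lost without CK3, DH1 or DH3 (4.13 to 6.20 over the 12 fits). The values were 3.51 in HT (adjusted p = 0.123) and 3.53 in DR (adjusted p = 0.175), which did not pass.

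The remaining genes of that list did not move as 1 group. Of its 7 genes, 1 was raised and 0 lowered in HT (0.569% and 0.472% of all tested genes), 0 were called in DR (0.586% raised and 0.195% lowered of all), and 1 was raised and 2 lowered in DH (0.577% and 0.968%). The median log2 fold changes of the list were -2.01 in HT, -1.75 in DR and -3.45 in DH, beside 0.30, 0.07 and -0.37 over all tested genes. In each stress, 3 of the 7 genes had values above 0, namely ACX2, At3g08860 and HSP15.7. The others were copies of OPR3 and SHM4, and each median was the value of 1 of these copies. HSP15.7, known in Arabidopsis as a small heat shock protein of the peroxisome, rose in HT (4.70, limma adjusted p = 0.0449). At3g08860, annotated in Arabidopsis as an alanine-glyoxylate aminotransferase, which uses glyoxylate as a substrate, had log2 fold changes of 0.76, 3.07 and 2.08 in HT, DR and DH and was not called.

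The genes of that list lowered in DH were OPR3 G20440 (-4.31, limma adjusted p = 0.0440), a reductase of jasmonate synthesis in the peroxisome, and SHM4 G8870 (-4.19, adjusted p = 0.0481), a serine hydroxymethyltransferase. Their second copies, OPR3 G11747 (-3.77, adjusted p = 0.0820) and SHM4 G8891 (-3.45, adjusted p = 0.0525), also had negative values in DH but were not called. With the 3 stresses averaged, 1 of the 7 genes was raised and 3 were lowered, beside 1.07% and 1.39% of all tested genes. The calls of HSP15.7, OPR3 G20440 and SHM4 G8870 were lost in 6, 7 and 8 of the 12 fits with 1 library left out. For HSP15.7 these were the fits lacking HT1, HT3, DR3, DH3, CK2 or CK3 (3.78 to 5.53 over the 12 fits). For OPR3 G20440 they were those without CK2, CK3, HT1, DR2, DR3, DH2 or DH3 (-5.56 to -3.33), and for SHM4 G8870 those without CK2, CK3, DH1, DH2, DH3 or any DR library (-4.99 to -3.60).

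Genes of sugar and organic acid metabolism that the study's tables name were counted likewise. Whether they act on malate made by MLS was not tested. Of 8 genes of the triose and sugar route (aldolases, triose phosphate isomerase, glyceraldehyde phosphate dehydrogenase, phosphoglycerate kinase, a phosphofructokinase subunit and sucrose phosphate synthase), 6 were tested and 0 were called in HT, DR or DH, where raised and lowered genes made up 0.569% and 0.472%, 0.586% and 0.195%, and 0.577% and 0.968% of all genes tested. Their median log2 fold changes were -2.43 in HT, -0.21 in DR and -2.91 in DH, beside 0.30, 0.07 and -0.37 over all tested genes. Several of these genes also serve photosynthesis, and GAPB is itself one of the leaf markers.

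Of 5 genes that handle organic acids, 4 were tested, and 2 were lowered in HT, 0 in DR and 2 in DH, with none raised, beside 0.472%, 0.195% and 0.968% of all tested genes lowered. The list medians were -2.65 in HT, -2.40 in DR and -3.57 in DH, beside 0.30, 0.07 and -0.37 over all tested genes. Both lowered genes were copies of DIT1, a dicarboxylate transporter of the chloroplast envelope that carries malate. The leaf marker sums were also below CK in HT and DH, and the part of leaf content in the DIT1 values was not tested. DIT1 G25883 had FPKM of 20.5, 10.6 and 10.2 in HT1 to HT3, 12.4, 21.0 and 40.5 in DR1 to DR3, and 2.31, 4.64 and 14.0 in DH1 to DH3, against 430, 126 and 248 in CK1 to CK3. All stressed libraries lay below all CK libraries, and the share of all tested genes with such a separation was not counted. Its log2 fold change was -4.08 in HT (limma adjusted p = 0.0373), -3.37 in DR (adjusted p = 0.101) and -5.19 in DH (adjusted p = 0.00443). That of DIT1 G41157 was -3.85 in HT (adjusted p = 0.0405), -3.34 in DR (adjusted p = 0.1004) and -5.17 in DH (adjusted p = 0.00436). The DH calls of both held in all 12 fits with 1 library left out. In HT the call of G25883 was lost in 7 of them (those lacking HT1, HT3, DR3, DH3 or any of the CK libraries) and that of G41157 in 8 (the same and DR2), with values between -4.54 and -3.66 and between -4.37 and -3.43.

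**Figure D4:**
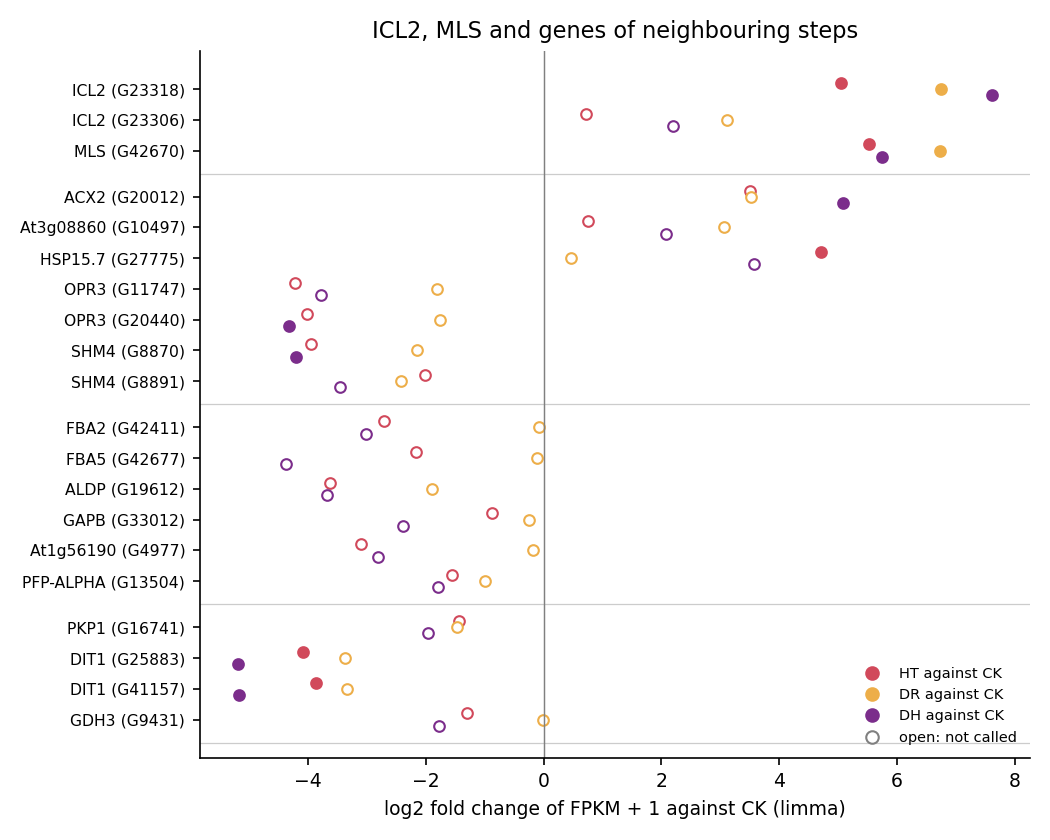
Log2 fold change of FPKM + 1 against CK in HT, DR and DH for the ICL2 and MLS genes (top block) and for the tested genes of the peroxisome and glyoxylate list, the triose and sugar route and organic acid handling (blocks below). Filled points were called by limma. G23318, MLS, ACX2 and HSP15.7 hold the filled points above 0, and DIT1, OPR3 G20440 and SHM4 G8870 those below.

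The leaf and starch markers had negative medians in all 3 stresses, where those of all tested genes were 0.30 in HT, 0.07 in DR and -0.37 in DH, and lowered genes made up 0.472%, 0.195% and 0.968%. Of 8 leaf markers, 0 were called in HT or DR and 2 were lowered in DH, both copies of CRD1 of chlorophyll synthesis (G16398 at -4.45, limma adjusted p = 0.0387, and G16412 at -4.76, adjusted p = 0.0178), with list medians of -2.57 in HT, -0.31 in DR and -2.97 in DH. Of 5 starch genes 3 were tested, and 1 was lowered in DH, the beta-amylase gene BMY1 (-4.98, adjusted p = 0.0442), with list medians of -4.59 in HT, -3.40 in DR and -3.61 in DH. With 1 library left out, the call of CRD1 G16398 was lost in 6 of the 12 fits (without CK1, CK2, DR2, DR3, DH1 or DH2), that of CRD1 G16412 in 3 (without CK2, DH1 or DH2), and that of BMY1 in 9 (all but those without CK1, HT2 or DR1). The log2 fold change then lay between -5.58 and -3.53 for CRD1 G16398, between -5.92 and -3.94 for CRD1 G16412 and between -5.98 and -3.55 for BMY1.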

How the data were processed

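RNA of 12 pools from leaves and tuberous roots was sequenced. After trimming, alignment with HISAT2 (2.0.4) and transcript assembly with StringTie (1.3.4d), named in the submitters' processing notes, the authors deposited 1 table of FPKM per library, corrected for transcript length and library size. The study's methods name a published sweetpotato genome as the reference, and its build name is not given in the sources used here. The labels name Trizol, cutadapt (1.9) and a NovaSeq, whereas the study's methods name another kit, trimmer and instrument. Read depth is unknown from these tables, so no count model was run. The table of DR2 lists 49073 genes and holds ICL2 and MLS. Of the tested genes 1087 are missing from it, and for these the fit used the remaining libraries.

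Groups were taken from the sample titles and treatments. A gene was kept if 3 or more libraries had an FPKM of 1 or higher. The limma package (3.58.1, R 4.3.3) was run on log2(FPKM + 1) in a single model of the 12 libraries, with trended two-sided eBayes, and was tested on simulated data. The Benjamini-Hochberg adjustment covered all 12295 genes tested. Ratios within a library were compared by exact permutation, with p adjusted over 12 tests (scipy 1.17.1, numpy 2.4.6 and pandas 2.3.3 under Python 3.11.15).

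The genes, lists and tests were chosen with earlier results of these data known. Symbols and lists come from the study's tables, which were chosen on these samples, so the direction of a list is not independent evidence. The genes named are ICL2, MLS, list members and, for each of the 3 genes, the 5 named genes with the highest Pearson r. Alternatives were a pseudocount of 0.1, no filter, upper-quartile and median-of-ratios scaling (6414 genes), a replicate block, a fit restricted to the groups compared, and each library left out in turn. Libraries were taken as paired by number where every same-numbered pair of 2 groups had a correlation of deviations over 0.1. This held only for DR with CK (0.60, 0.37 and 0.19), a pairing seen in the data and not stated in the labels. Scaling without the 10 most abundant genes, and leaving out HT2 and DH2 together, were added after seeing the data.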

Additional observations from a re-analysis of the deposited data

How the results depend on the processing

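ICL2 G23318 in DH, MLS in DR, and both genes with the stresses averaged kept their direction and call in every alternative run. Without the filter on low values, where more genes are tested, 4 calls against CK were lost at unchanged log2 fold changes: G23318 in HT (5.05, adjusted p = 0.324) and in DR (6.74, adjusted p = 0.0852), and MLS in HT (5.52, adjusted p = 0.116) and in DH (5.74, adjusted p = 0.0593). In a limma fit of only the groups compared, G23318 in HT (5.05, adjusted p = 0.157) and MLS in HT (5.52, adjusted p = 0.0802) were lost. In DR the same kind of fit lowered the adjusted p, to 0.00267 for G23318 and 0.000813 for MLS. The main fit shares 1 spread over all groups, whereas the log2 SD was larger in HT than in DR. It was 2.73 against 1.08 for G23318 and 2.12 against 0.38 for MLS. With 1 library left out, log2 fold changes against CK ranged from 4.06 to 6.61 for G23318 and from 4.40 to 6.50 for MLS in HT, from 6.19 to 7.59 for G23318 in DR, and from 5.01 to 6.97 for MLS in DH. That of G23306 in HT ranged from -0.023 to 1.09, its sign turning without HT3. The cause was not tested in these cases.

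Differences between stresses, none called, moved with single libraries, and some turned sign. With 1 left out, DH minus HT of MLS ranged from -0.76 to 1.45 (negative without HT2, DH1 or DH3). DH minus HT of G23318 ranged from 1.004 to 3.78, HT minus DR from -2.69 to -0.14 for G23318 and from -2.33 to -0.22 for MLS, and DH minus DR from -0.00012 to 2.09 for G23318 (negative without DH1), from -1.67 to 0.093 for G23306 and from -1.71 to 0.24 for MLS (both positive without DH2). Leaving out HT2 and DH2 together, chosen after seeing the data, gave 0.093 for G23306 and 0.24 for MLS in DH minus DR. With 0.1 FPKM added in place of 1, log2 fold changes against CK were 6.64, 8.39 and 9.25 in HT, DR and DH for G23318, 5.64, 6.85 and 5.87 for MLS, and 1.56, 6.08 and 4.48 for G23306, with the same calls. Heat by drought of MLS ranged from -7.49 to -5.28. The log2 ratio of G23318 to MLS, HT minus CK, was 0.997 with 0.1 FPKM added in place of 1, and with 1 library left out it ranged from -1.60 to 0.75 in HT, from -0.996 to 1.24 in DR and from -0.54 to 1.69 over all stresses. The cause was not tested.

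The replicate numbers paired the libraries of DR with CK only, by the rule on correlations; over all group pairs the correlations of same-numbered libraries ran from -0.12 to 0.60, 10 of 18 were over 0.1, and 8 of 12 libraries correlated best with their own number, a hint from the data and not the design. With the replicate number as a block, the log2 fold changes of G23318 and MLS against CK were unchanged, for example 7.61 for G23318 in DH (adjusted p = 0.000736), and no call of ICL2 or MLS changed. The block moved the raised genes over all genes to 282 in HT, 121 in DR and 141 in DH, against 70, 72 and 71 without it. Over the other alternatives and the block these counts ran from 5 to 284 in HT, 17 to 121 in DR and 12 to 239 in DH, and the lowered ones (58, 24 and 119) from 4 to 176, 5 to 61 and 23 to 209. With 1 library left out the raised genes ran from 6 to 320 in HT, 23 to 106 in DR and 18 to 111 in DH. Upper-quartile scaling shifted the median of all genes by -0.43 in HT and 0.17 in DH, median-of-ratios scaling by -0.31, -0.11 and 0.15 in HT, DR and DH, and scaling without the 10 most abundant genes by 0.37 in DH, and under each of them the fold changes of G23318 and MLS stayed above 4.38. Depth is unknown, so counting error could not be given for the values near 0 of G23306.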
